A study of Homo sapiens with 6 samples.

Results

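The replication-dependent histone genes were examined in MDA-MB-231 cells with and without knockdown of TAZ. They were taken from the deposited GRCh38 gene table as the protein-coding genes with the symbols H1-1 to H1-6, H2AC, H2BC, H3C or H4C followed by a number, and 66 of 46427 genes met this rule. The H1 class held 6 genes, H2A 16, H2B 17, H3 13 and H4 14. On chromosome 6, 55 of them lay between positions 25726063 and 27893891, and the other 11 lay on chromosome 1 between 149782689 and 149887965 (GRCh38).

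MDA-MB-231 is a metastatic human breast cancer cell line. The cells, labelled as wild type, were grown in low-glucose DMEM with fetal bovine serum and treated with control-siRNA (3 libraries) or with TAZ-siRNA (3 libraries), which targets WWTR1, the gene symbol of TAZ. A single cell line was used, and the labels do not give the duration of the siRNA treatment before RNA was harvested. Per the study's methods each group comprised 3 cell preparations, so the p-values measure the spread between preparations of this line. The series asked how TAZ knockdown changes the transcriptome of these cells.

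Core histones H2A, H2B, H3 and H4 form the nucleosome, around which DNA is wrapped, and the linker histone H1 binds the DNA between nucleosomes. Replication-dependent histone genes are transcribed mainly in S phase, when new DNA must be packaged, and their mRNAs typically end just after a conserved stem-loop instead of in a poly(A) tail. The stem-loop is bound by SLBP and the cut after it is made with the U7 snRNP, and some of these genes can also give longer, polyadenylated mRNAs that run past the stem-loop. Library kits that select mRNA by its poly(A) tail, as the one named in the labels does, recover messages without a tail poorly.

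A stem-loop was found at the end of the coding unit of 66 of 66 genes. It was read on the strand of each gene from the reference genome (GRCh38), and 10 distinct versions occurred. The most frequent was shared by 38 genes, and the next ones by 9, 9 and 4 genes. The following examples belong to genes among the 4 of their class with the highest mean read count, with the 16 stem-loop bases in capitals. They include the most abundant gene of each class and the genes on which the comparison turned. The coordinates are those of the capitals.
H1-2, chr6:26055744-26055759, minus strand: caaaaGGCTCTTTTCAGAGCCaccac
H2AC6, chr6:26124669-26124684, plus strand: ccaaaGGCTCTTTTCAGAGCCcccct
H2BC12, chr6:27146366-27146381, minus strand: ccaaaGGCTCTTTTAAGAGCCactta
H2BC5, chr6:26158587-26158602, plus strand: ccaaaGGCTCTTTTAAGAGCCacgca
H2BC4, chr6:26123472-26123487, minus strand: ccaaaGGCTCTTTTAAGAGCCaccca
H2BC21, chr1:149886188-149886203, minus strand: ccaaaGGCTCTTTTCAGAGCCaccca
H3C3, chr6:26045849-26045864, plus strand: gaaaaGGCTCTTTTCAGAGCCactca
H4C8, chr6:26285131-26285146, minus strand: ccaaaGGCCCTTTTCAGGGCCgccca
H4C15, chr1:149860769-149860784, minus strand: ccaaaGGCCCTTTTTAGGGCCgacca
The H2B genes H2BC12, H2BC5 and H2BC4 carried the same stem-loop letters, and the 2 H4 genes shown differed from the other classes in the paired bases of the stem.

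The knockdown was checked first. WWTR1 stood at 192, 190 and 190 CPM (read counts normalized for library size by edgeR's TMM factors) under control-siRNA and at 17.3, 17.0 and 15.1 CPM under TAZ-siRNA. Its log2 fold change was -3.53 (SE 0.061, edgeR adjusted p = 2.5e-10), which left 8.64% of the control level. Library totals ranged from 48307548 to 71749634 counts. Replicate 3 lay farthest from the other libraries in both groups. For TAZ-siRNA replicate 3 the chi-square per degree of freedom was 30.3 and 41.0, against 11.7 between replicates 1 and 2. For control-siRNA replicate 3 it was 21.9 and 19.8, against 6.79 between replicates 1 and 2. Without TAZ-siRNA replicate 3, 5928 instead of 3749 genes of the whole table passed an adjusted p of 0.05. Of the markers of the line, VIM, CD44, KRT8, KRT18, CAV1 and AXL were expressed in every library, and ESR1 and PGR, the hormone receptors that define other breast cancers, were at or near 0. Of the other genes listed as low in this line, CDH1 was at 0.0406 to 0.578 CPM, whereas FOXA1, a luminal factor, was measured at 4.11 to 5.57 CPM.

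Replication-dependent histone genes made up a small share of these libraries. Their counts summed to 6192, 5777 and 4906 under control-siRNA and to 6921, 4775 and 6079 under TAZ-siRNA. This was 0.00947% ± 0.000352 of all counts with control-siRNA and 0.0101% ± 0.000576 with TAZ-siRNA (SD, n = 3 each), and the groups overlapped. As a share of TPM, which is also scaled for transcript length, the family stood at 0.0259, 0.0256 and 0.0277% against 0.0284, 0.0281 and 0.0302%. By that measure the groups did not overlap, and neither share was tested. In a bulk sample, a change in the level of these mRNAs per cell and a change in the share of cells in S phase cannot be told apart.

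Most of the 66 genes were barely measured. At least 1 count was present for 47 genes in any library, and the other 19 were at 0 in all 6 libraries, which allows up to 3 counts in each. Of the 47, 23 passed edgeR's filter on low counts (2 of H1, 6 of H2A, 8 of H2B, 2 of H3 and 5 of H4) and 24 did not. The lowest mean among those that passed was 0.222 CPM and the highest among those that did not was 0.149 CPM.

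A single gene dominated the counts of the family in these poly(A) libraries. H2BC12, which encodes an H2B protein (gene ID 85236, chr6:27138293-27146858, minus strand), held 52.2% of all counts of these genes and 76.5% of those of its class. By class, H2B held 68.2% of the counts, H1 15.8%, H2A 9.91%, H4 4.82% and H3 1.24%. Within H1, nearly all counts (97.4%) were those of H1-2, which encodes a linker histone. In the other classes the leading gene held less, namely 41.0% for H2AC6 in H2A, 55.8% for H4C15 in H4 and 25.5% for H3C3 in H3.

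**Figure D1:**
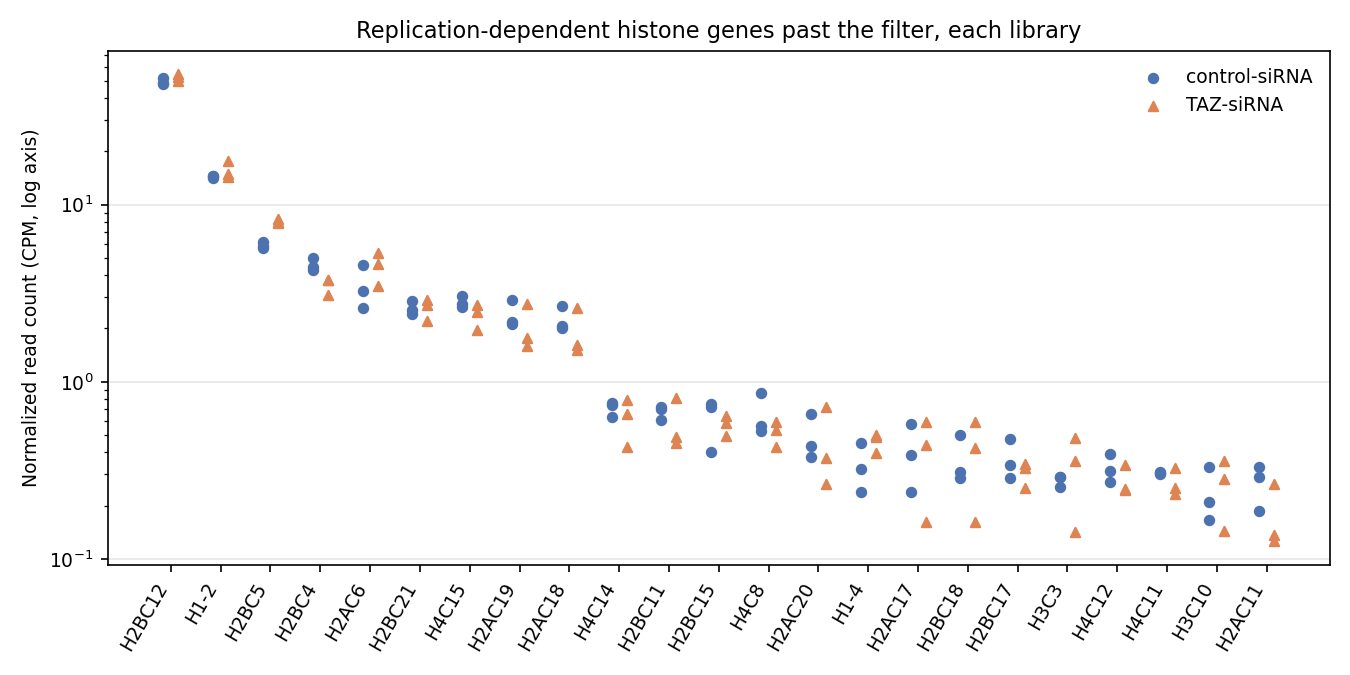
Normalized read count (CPM, logarithmic axis) of the 23 replication-dependent histone genes that passed the filter, ordered by mean level, with 1 point per library (circles, control-siRNA; triangles, TAZ-siRNA). H2BC12 lies between 47.9 and 54.7 CPM and most genes lie below 1 CPM, and the triangles lie all above the circles for H2BC5 and all below them for H2BC4.

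Levels between genes were compared per length, in TPM, which the authors scaled for transcript length. They are levels of the RNA recovered, and poly(A) selection recovers messages without a tail poorly. H2BC12 was highest with 129 ± 2.94 TPM in the control-siRNA libraries, followed by H1-2 with 42.9 ± 0.718 TPM (SD, n = 3). H2BC5 (15.6 ± 0.417 TPM) and H2AC6 (14.5 ± 3.81 TPM) came next and did not differ beyond their spread. H2AC19 (9.70 ± 1.47 TPM) and H2AC18 (9.14 ± 1.26 TPM) followed, likewise within their spread. H2BC4 (4.20 ± 0.351 TPM), H4C15 (4.04 ± 0.458 TPM), H4C14 (3.83 ± 0.332 TPM) and H4C8 (3.40 ± 0.882 TPM) formed a group of neighbours that were not separated.

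The transcript models that received the counts were then compared with the position of the stem-loop. The deposited table held 80 RefSeq models for the 66 genes, of which 64 ended at the stem-loop and 16 ran past it. The 16 longer models held 69.2, 69.7 and 66.8% of the family's counts under control-siRNA and 69.1, 71.5 and 66.2% under TAZ-siRNA. The groups overlapped, and the means were 68.6% and 68.9%. This share came from H2B, where longer models held 96.1 to 97.3% of the counts, and from H4, where they held 50.4 to 59.4%. In H1, H2A and H3, the counts lay wholly in models that end at the stem-loop. No gene of these classes with counts had a longer model, so this share was fixed by the models. It does not show where the RNAs of these classes end.

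**Figure D2:**
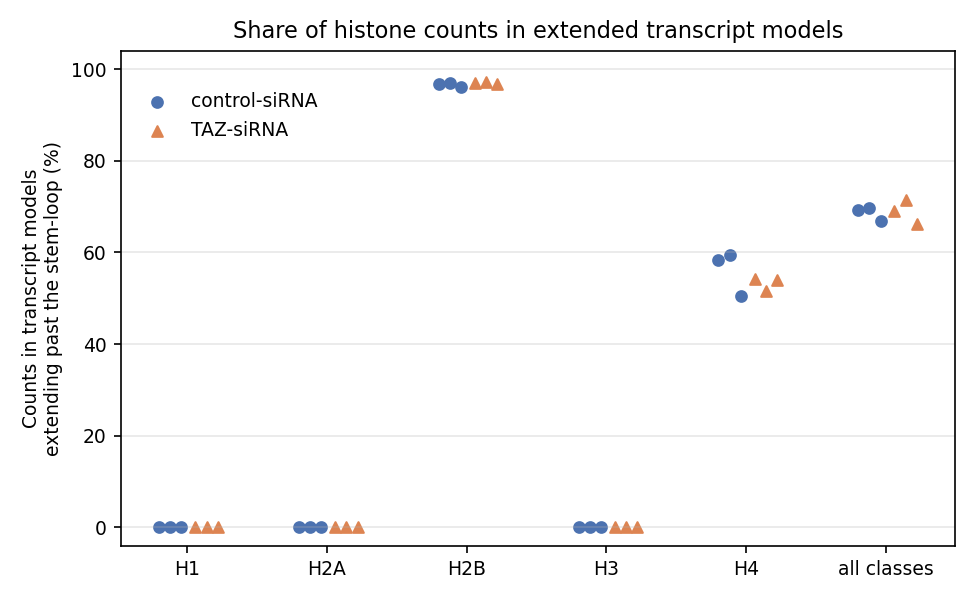
Percent of the counts of each histone class that the deposited transcript table assigned to models running past the stem-loop, with 1 point per library (circles, control-siRNA; triangles, TAZ-siRNA). The share was 0 for H1, H2A and H3, where no gene with counts had a longer model. It was 96.1 to 97.3% for H2B and 50.4 to 59.4% for H4, and libraries of both groups overlapped in each class.

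The longer H2B models belonged to a few genes. A spliced model of H2BC12 that ends 8073 bases beyond the stem-loop held 99.6 to 99.9% of that gene's counts. For H2BC4, a spliced model ending 10302 bases beyond it held 98.9 to 99.7%. For H2BC5, the spliced model that ends 12747 bases beyond the stem-loop held 82.8 to 93.3%, a second longer model 4.67 to 16.5%, and the short model that ends at the stem-loop 0.552 to 2.91%. The only model of H2BC21 was unspliced and extended 1729 bases past the stem-loop. Distances are along the genome.

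Models of H4C15 were of another kind. Its coding model, which ends at the stem-loop, held 0.524 to 2.78% of the gene's counts, and one spliced model that RefSeq lists as non-coding held 62.3 to 74.5%. The counts printed for H4C15 are therefore mainly those of RNAs that are longer than the H4 message. A further 8.61 to 22.7% went to a model that begins downstream of the coding unit.

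Identical copies limit what single gene counts can show. Up to and including the stem-loop, H4C14 and H4C15 were 100% identical, H2AC18 and H2AC19 differed at 1 position (99.8% identity), H4C11 and H4C12 at 2 (99.5%), and H3C14 and H3C15 at 4 (99.2%). The identical coding units of H4C14 and H4C15 were assigned 42, 47, 36, 48, 21 and 44 counts and 1, 1, 1, 5, 1 and 3 counts, in the order control-siRNA replicates 1 to 3 and TAZ-siRNA replicates 1 to 3. Reads of such a pair cannot be placed by sequence, so how they were divided depended on the counting. The near-identical H2AC18 and H2AC19 received almost equal counts (135 and 142 in control-siRNA replicate 1, 145 and 153 in TAZ-siRNA replicate 3). Other genes were less alike, with a median identity between pairs of 82.0% in H2B, 79.7% in H3, 77.7% in H4, 76.6% in H2A and 67.6% in H1. The counts were therefore also summed by class.

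No class passed the test between the groups (adjusted p under 0.05), which 22.1% of the 16948 genes and sums in that fit passed. The H2B class, which with H2A forms the outer dimers of the nucleosome core, summed to 63.6, 63.5 and 67.5 CPM with control-siRNA and to 65.2, 69.1 and 71.7 CPM with TAZ-siRNA. Its log2 fold change was 0.08 (95% interval -0.04 to 0.20, edgeR adjusted p = 0.304). The H1 class, the linker histones, stood at 14.5, 14.9 and 15.1 CPM against 14.8, 15.4 and 18.2 CPM. The last of these values, that of TAZ-siRNA replicate 3, lay above the rest, and the log2 fold change of the class was 0.12 (-0.07 to 0.31, adjusted p = 0.342). Leaving out TAZ-siRNA replicate 3 lowered it to 0.024 for H1 and to 0.05 for H2B, and leaving out TAZ-siRNA replicate 1 raised it to 0.18 for H1.

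In the H2A class, replicate 3 of each group was the highest, with 8.88, 8.31 and 11.9 CPM against 9.23, 7.48 and 12.6 CPM. The log2 fold change was 0.02 (-0.44 to 0.49, edgeR adjusted p = 0.953), and its sign depended on single libraries, since leaving out control-siRNA replicate 1 gave -0.036, leaving out control-siRNA replicate 2 gave -0.078 and leaving out TAZ-siRNA replicate 3 gave -0.20. For the H4 class, levels were 4.71, 5.14 and 5.23 CPM against 4.43, 3.77 and 4.91 CPM, with a log2 fold change of -0.20 (-0.47 to 0.07, adjusted p = 0.269) that was -0.10 without TAZ-siRNA replicate 2 and -0.12 after correcting for GC and length. The TAZ-siRNA libraries lay mostly below the control-siRNA libraries, but the groups overlapped. Of the H4 counts, 50.4 to 59.4% came from the longer models of H4C15, mainly the one listed as non-coding. The H4 sum is therefore not a measure of H4 message alone. H4 models ending at the stem-loop had 131, 130 and 126 counts with control-siRNA and 148, 90 and 126 counts with TAZ-siRNA. For H3, the class with the fewest counts, the levels of 1.17, 1.03 and 1.36 CPM and of 1.30, 1.05 and 1.31 CPM overlapped, with a log2 fold change of 0.05 (-0.37 to 0.48, adjusted p = 0.873) that turned to -0.040 without control-siRNA replicate 2 and was 0.19 after correcting for GC and length. After correcting for GC and length, H1 (log2 0.24, adjusted p = 0.018) and H2B (log2 0.18, adjusted p = 0.0044) passed the threshold as higher with TAZ-siRNA.

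**Figure D3:**
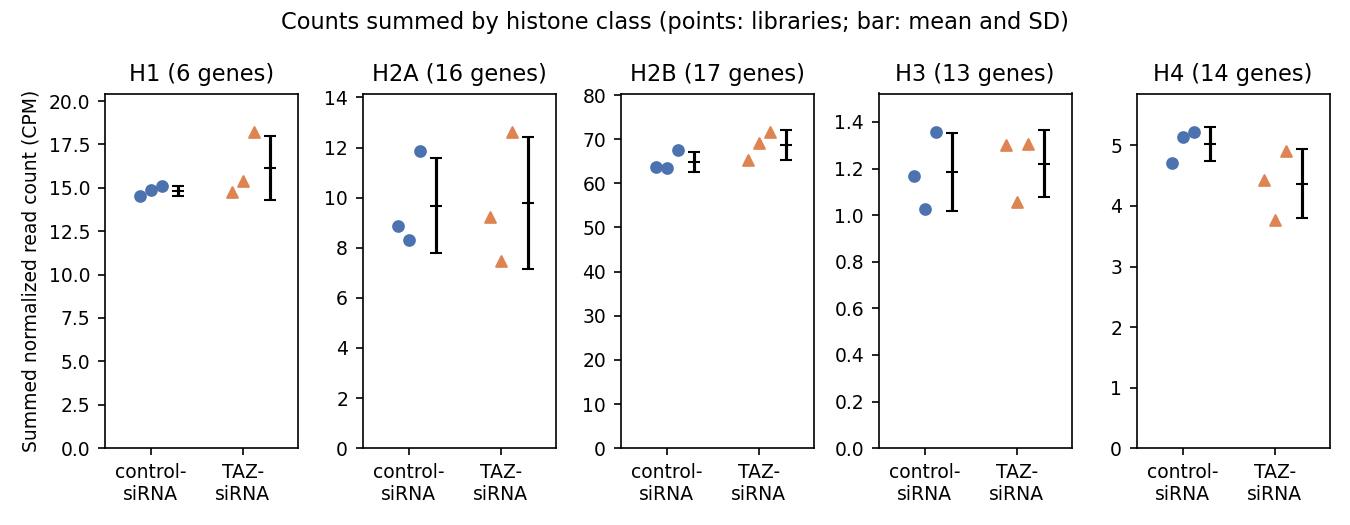
Counts of the replication-dependent histone genes summed by class, as CPM from 0, with 1 point per library (circles, control-siRNA; triangles, TAZ-siRNA) and the mean with its SD (n = 3) beside each group. The groups overlap in each of the 5 classes, and replicate 3 of both groups is the highest in H2A.

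Single genes were tested in the fit over all 16966 genes that passed the filter. Of the 23 histone genes tested, 1 rose (H2BC5) and 0 fell at an adjusted p under 0.05. Of all genes tested, 22.1% passed it, 11.9% as higher and 10.2% as lower. That share covers genes of all levels, and none was computed for genes of like level. Most of the 23 lay below 1 CPM, where SEs were wide (0.454 for H2AC17 against 0.057 for the abundant H2BC12). At an unadjusted p under 0.05 there were 2 histone genes (H2BC5 and H2BC4), and DESeq2 called 1. Without a filter, 47 were tested and 1 was called. Of the 23, 9 had a log2 fold change above 0 and 14 below 0, with a median of -0.12 against -0.0054 over all genes tested. Each gene counts equally in that median, whatever its level. The groups did not overlap for 1 gene with TAZ-siRNA higher and for 1 with TAZ-siRNA lower, where 20% and 19.6% of all genes tested (39.6% in all) had such groups.

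**Figure D4:**
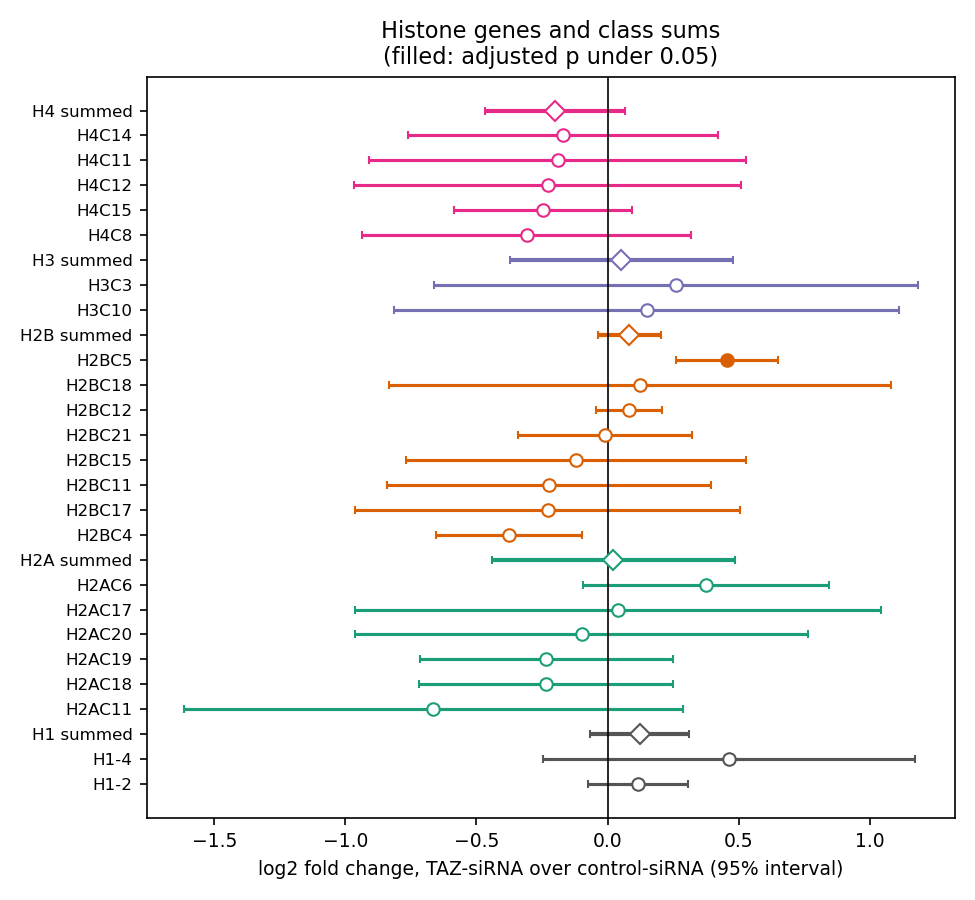
Log2 fold change (TAZ-siRNA over control-siRNA, edgeR) with its 95% interval for the 23 genes tested (circles, coloured by class) and for the sum of each class (diamonds). H2BC5 is filled since its adjusted p was under 0.05, the interval of H2BC4 lies below 0 although its adjusted p was 0.055, and all other intervals include 0.

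H2BC5, which encodes an H2B protein (gene ID 3017, chr6:26158008-26171349, plus strand), was higher with TAZ-siRNA. It had 379, 362 and 300 counts (5.68, 5.82 and 6.18 CPM) under control-siRNA and 574, 412 and 448 counts (7.87, 8.35 and 8.02 CPM) under TAZ-siRNA. The 3 TAZ-siRNA libraries lay above the 3 control-siRNA libraries. The log2 fold change was 0.46 (SE 0.088, 95% interval 0.26 to 0.65, edgeR adjusted p = 0.0049), and H2BC5 was called in 6 of 6 fits that left out a library, with log2 fold changes of 0.43 to 0.49. Its main spliced model, the one ending 12747 bases past the stem-loop, had 329, 309 and 280 counts against 510, 361 and 371 counts, and its short model had 3, 2 and 6 against 9, 12 and 3. The locus overlaps the pseudogene LARP1P1, and whether counting used strand is not given in the sources used here.

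H2BC4, another H2B gene (gene ID 8347, chr6:26113170-26123926, minus strand), pointed the other way. Its counts were 284, 310 and 217 (4.26, 4.98 and 4.47 CPM) with control-siRNA and 225, 185 and 210 (3.09, 3.75 and 3.76 CPM) with TAZ-siRNA. The TAZ-siRNA libraries were all below the control-siRNA libraries, and the log2 fold change of -0.38 (SE 0.125) had an edgeR adjusted p of 0.055. It passed with an edgeR adjusted p of 0.029 when TAZ-siRNA replicate 3 was left out and of 0.037 after correcting for GC and length.

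For H2BC12, the most abundant gene, 49.0, 47.9 and 52.1 CPM were measured with control-siRNA and 50.1, 52.7 and 54.7 CPM with TAZ-siRNA. The groups overlapped in CPM but not in TPM (129, 126 and 132 against 139, 145 and 140). On the counts, the log2 fold change was 0.08 (SE 0.057, 95% interval -0.05 to 0.21, edgeR adjusted p = 0.344). Its value was 0.20 (edgeR adjusted p = 0.0053) after correcting for GC and length. The locus overlaps H4C9 on the opposite strand, which had 0 to 4 counts in any library. H2BC21, on chromosome 1, stood at 2.55, 2.84 and 2.43 CPM against 2.21, 2.72 and 2.88 CPM, with a log2 fold change of -0.01 (-0.34 to 0.32, adjusted p = 0.973).

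Among the linker histones, H1-2 (gene ID 3006, chr6:26055740-26056470, minus strand) varied little between most libraries. It stood at 14.2, 14.5 and 14.6 CPM with control-siRNA and at 14.4, 14.9 and 17.7 CPM with TAZ-siRNA, so that TAZ-siRNA replicate 3 was the highest. In TPM, H1-2 stood at 42.9, 43.7 and 42.2 against 45.8, 46.9 and 52.0, without overlap. Its log2 fold change was 0.12 (SE 0.086, edgeR adjusted p = 0.369), or 0.23 (adjusted p = 0.022) after correcting for GC and length, and 0.021 without TAZ-siRNA replicate 3. H1-4 had the largest positive log2 fold change of the 23 genes, 0.46 (-0.25 to 1.17, adjusted p = 0.334), from 16, 20 and 22 counts against 29, 24 and 28 counts. Scaled to depth, the groups overlapped. H1-6 had 0 to 2 counts and H1-3 had 2 counts in control-siRNA replicate 2 only, and H1-1 and H1-5 were at 0.

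Among the H2A genes, H2AC6 (gene ID 8334, chr6:26124172-26124690, plus strand) varied more between libraries. Its levels were 3.25, 2.62 and 4.57 CPM with control-siRNA and 4.61, 3.49 and 5.34 CPM with TAZ-siRNA, which overlapped. The log2 fold change was 0.38 (SE 0.211, 95% interval -0.10 to 0.85, edgeR adjusted p = 0.235). H2AC18 and H2AC19, the near-identical pair on chromosome 1, had log2 fold changes of -0.24 and -0.23 (both adjusted p = 0.483). H2AC20 stood at -0.10 (adjusted p = 0.884), and H2AC11 had the largest negative value, -0.67 (-1.62 to 0.29, adjusted p = 0.300), from 22, 18 and 9 counts against 10, 13 and 7 counts. With counts this low, the interval of H2AC11 spans changes from a strong fall to a rise.

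Genes of H3 and H4, which together form the central tetramer of the nucleosome, were measured at low counts. H3C3 had 17, 18 and 14 counts against 26, 7 and 27, with a log2 fold change of 0.26 (-0.66 to 1.18, edgeR adjusted p = 0.698). H3C10 had 22, 13 and 8 counts against 26, 14 and 8 (log2 0.15, adjusted p = 0.837), and H3C2 and H3C14, under the filter, had 3 to 14 and 5 to 11 counts. H4C15 had a log2 fold change of -0.25 (-0.59 to 0.09, adjusted p = 0.281), H4C14 of -0.17, H4C8 of -0.31 and H4C12 of -0.23, and the groups overlapped for each of them. The 6 genes tested and not named above had log2 fold changes between -0.23 and 0.12.

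H2A and H2B genes often lie head to head and share the stretch between their starts. There were 11 such pairs, with starts 194 to 251 bases apart. In 8 pairs both genes were detected, and in 4 both passed the filter. H2AC6 and H2BC4 had log2 fold changes of 0.38 and -0.38, and neither passed the adjusted threshold. The other 3 pairs, named after their values were seen, had log2 fold changes of 0.04 and -0.23 (H2AC17 and H2BC17), -0.67 and -0.22 (H2AC11 and H2BC11) and -0.10 and -0.01 (H2AC20 and H2BC21). H2AC12, the partner of the abundant H2BC12, had 2 to 6 counts in any library.

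Promoter sequences were searched on both strands for an octamer (ATTTGCAT, bound by POU2F1), a TATA box (TATAAA) and a CCAAT box (CCAAT), in windows from 250 bases before to 50 bases after the start (RefSeq, GRCh38.p14). Windows were matched for 61 of 66 genes, and a gene was counted if any of its windows held the motif. Head-to-head H2A and H2B genes, with starts 194 to 251 bases apart, share most of their windows, so 1 site can count for both. The octamer was present in 14 of 17 H2B and 11 of 15 H2A genes. It was present in 1 of 11 H3, 0 of 6 H1 and 0 of 12 H4 genes, against 2.19% of 27305 genes. The TATA box was present in 14.0% of all genes and in 12 of 17 for H2B, 12 of 15 for H2A, 9 of 11 for H3, 3 of 6 for H1 and 6 of 12 for H4. The CCAAT box was present in all matched H1, H2A, H2B and H3 genes and in 3 of 12 for H4, against 39.7% of all genes.

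The promoters of the most abundant gene of each class and of H2BC5 and H2BC4 are shown, with matches to these motifs in capitals on either strand. For single genes, the 120 bases before the RefSeq start are given on the strand of the gene. For H2BC12 and H2BC5 this is the start of the short model that ends at the stem-loop, and a longer model of H2BC5 begins within the stretch shown, at position 26158008. For H2BC4 and H2AC6 the 245 bases between their starts are given on the plus strand, so that H2AC6 begins after the right end and H2BC4 is transcribed leftward from the left end.
H1-2, chr6:26056471-26056590, minus strand: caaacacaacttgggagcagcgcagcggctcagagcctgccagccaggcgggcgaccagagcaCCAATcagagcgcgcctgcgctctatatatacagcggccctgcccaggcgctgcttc
H2BC12, chr6:27146856-27146975, minus strand: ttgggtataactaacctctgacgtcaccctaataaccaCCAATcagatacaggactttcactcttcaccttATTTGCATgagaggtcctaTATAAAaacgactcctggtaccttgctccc
H2BC5, chr6:26158002-26158121, plus strand: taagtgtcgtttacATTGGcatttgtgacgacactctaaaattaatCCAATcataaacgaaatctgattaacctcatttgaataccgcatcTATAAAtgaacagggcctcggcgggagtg
H3C3, chr6:26045264-26045383, plus strand: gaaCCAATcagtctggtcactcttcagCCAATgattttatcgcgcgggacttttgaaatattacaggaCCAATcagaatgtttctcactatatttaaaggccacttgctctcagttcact
H4C15, chr1:149861160-149861279, minus strand: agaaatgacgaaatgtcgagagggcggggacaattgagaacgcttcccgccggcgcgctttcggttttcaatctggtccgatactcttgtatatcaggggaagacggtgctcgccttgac
H2BC4 and H2AC6, chr6:26123927-26124171, plus strand: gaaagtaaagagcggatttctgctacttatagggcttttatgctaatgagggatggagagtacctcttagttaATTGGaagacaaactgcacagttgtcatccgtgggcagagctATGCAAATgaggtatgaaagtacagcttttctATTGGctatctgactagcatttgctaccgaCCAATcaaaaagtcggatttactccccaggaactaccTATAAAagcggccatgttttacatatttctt
The octamer stood in the H2BC12 promoter and, on the opposite strand, between H2BC4 and H2AC6. H2BC5, the gene that rose, held no match to these octamer letters in its whole window.

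Genes that act on histone genes and their mRNAs were read from lists, beside the 11.9% of all genes tested that rose and the 10.2% that fell (22.1% in all). Of 7 factors of histone gene transcription, 1 fell and 0 rose, with a median log2 fold change of -0.05. This count of 1 in 7 is near the share over all genes. The gene that fell was CDK2, the kinase that with cyclin E activates NPAT, at 100, 100 and 101 CPM against 84.6, 86.9 and 85.4 CPM (log2 -0.23, edgeR adjusted p = 0.0043). NPAT, the coactivator of histone gene transcription, stood at 43.9, 44.1 and 39.0 CPM against 42.0, 40.0 and 37.4 CPM, which overlapped (log2 -0.09, adjusted p = 0.374, and log2 fold change 0.0035 by limma on log2 FPKM with a pseudocount of 1). Leaving out TAZ-siRNA replicate 3 added 1 gene called higher, and after correcting for GC and length 3 were called lower, NPAT among them (log2 -0.15, edgeR adjusted p = 0.035). That correction raised the share called over all genes tested to 27%.

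Of 12 factors of histone mRNA 3′ end processing, 4 fell and 0 rose, with a median of -0.14, where 10.2% of all genes tested fell and 11.9% rose. They were LSM10, a subunit of the U7 snRNP (log2 -0.32, edgeR adjusted p = 0.0092), CSTF2, a cleavage factor (log2 -0.28, adjusted p = 0.0033), CPSF3, the endonuclease (log2 -0.17, adjusted p = 0.029), and NCBP1 of the nuclear cap-binding complex (log2 -0.16, adjusted p = 0.026). LSM10 stood at 14.5, 15.1 and 14.0 CPM against 11.3, 11.8 and 11.8 CPM, without overlap. SLBP, the stem-loop binding protein, stood at 73.5, 69.7 and 72.6 CPM against 64.3, 66.6 and 67.0 CPM, all lower with TAZ-siRNA, but its log2 fold change of -0.13 had an adjusted p of 0.086. CASP8AP2, also called FLASH, was level at -0.0022 (adjusted p = 0.992). LSM10 lost its call after correcting for GC and length (log2 -0.21, adjusted p = 0.062), and CSTF2, CPSF3 and NCBP1 lost theirs in both limma fits. The number called lower was 2, 1 and 2 without control-siRNA replicates 1, 2 and 3, and 2, 2 and 7 without TAZ-siRNA replicates 1, 2 and 3.

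Of 7 factors of histone mRNA translation and decay, 1 rose and 1 fell, with a median of -0.04, and 2 of 7 is near the 22.1% called over all genes tested. ERI1, an exonuclease that trims the stem-loop end, fell from 53.6, 52.2 and 49.3 CPM to 41.3, 38.9 and 41.0 CPM (log2 -0.36, edgeR adjusted p = 0.0017). TUT7, a terminal uridylyltransferase, rose from 71.0, 66.7 and 69.7 CPM to 83.5, 74.2 and 77.0 CPM (log2 0.18, adjusted p = 0.044). The groups did not overlap for either, as for 39.6% of all genes tested. The call of TUT7 was lost without a filter on low counts, in both limma fits and after correcting for GC and length, and of the fits that left out 1 library only those without TAZ-siRNA replicate 2 or 3 called any gene of the list higher.

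Of 13 histone chaperones and importers, 1 rose and 3 fell, with a median of 0.00084, and 4 of 13 is not far from the 22.1% called over all genes tested. ASF1B, a chaperone of H3 and H4, rose (43.6, 41.1 and 43.4 CPM against 51.3, 55.6 and 49.3 CPM, log2 0.28, edgeR adjusted p = 0.0075). IPO4, an importin that carries H3 and H4 to the nucleus, fell (145, 145 and 148 CPM against 110, 109 and 112 CPM, log2 -0.40, adjusted p = 0.00024). CHAF1B of the chromatin assembly factor CAF-1 (log2 -0.23, adjusted p = 0.037) and SSRP1 of the FACT complex (log2 -0.17, adjusted p = 0.038) fell as well. The number called in either direction was 2, 1 and 3 without control-siRNA replicates 1, 2 and 3, and 2, 2 and 6 without TAZ-siRNA replicates 1, 2 and 3.

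Histone genes outside the replication-dependent family, most of whose mRNAs carry a poly(A) tail, served as a comparison. Of 12 listed, 11 were tested, 2 rose and 1 fell, with a median of 0.02, and 3 of 11 is near the 22.1% called over all genes tested. H1-10, a linker histone variant, rose (59.4, 56.5 and 57.5 CPM against 62.5, 68.6 and 73.9 CPM, log2 0.24, edgeR adjusted p = 0.023), as did H3-3A, which encodes H3.3 (100, 107 and 107 CPM against 117, 116 and 121 CPM, log2 0.17, adjusted p = 0.026). MACROH2A1, which encodes a macroH2A variant, fell (162, 168 and 172 CPM against 124, 122 and 120 CPM, log2 -0.45, adjusted p = 0.00019). The groups did not overlap for any of the 3, as for 39.6% of all genes tested. The fits without control-siRNA replicates 1, 2 or 3 called 1 lower and 0 higher, those without TAZ-siRNA replicates 1 or 2 called 1 lower and 1 higher, and that without TAZ-siRNA replicate 3 called 3 lower and 3 higher.

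Genes of DNA replication and S phase, the period in which histone mRNA is made, were read last among the lists. Of 20, 10 fell and 0 rose, with a median of -0.19, where 10.2% of all genes tested fell and 11.9% rose. Of the 10 not called, 2 lay above 0, GINS1 (log2 0.16) and PCNA (log2 0.10, without overlap), named after their values were seen. Their edgeR adjusted p were 0.194 and 0.125. RRM2 and E2F1, also named after their values were seen, were level at log2 -0.0023 and -0.0036. CDC45, part of the replicative helicase, fell most (63.7, 60.8 and 61.3 CPM against 43.0, 46.0 and 45.3 CPM, log2 -0.47, edgeR adjusted p = 0.00028). CDT1 and CDC6, which load the helicase, fell by 0.41 and 0.33 on the log2 scale. The helicase subunits MCM2 (-0.32), MCM5 (-0.27) and MCM6 (-0.19), GINS2 (-0.27), the polymerase subunit POLE2 (-0.26) and the nucleotide synthesis genes TYMS and RRM1 (both -0.19) made up the other 7. Leaving out control-siRNA replicates 1, 2 and 3 in turn gave 5, 8 and 5 genes called lower, and leaving out TAZ-siRNA replicates 1, 2 and 3 gave 6, 8 and 10, the last with 2 called higher. After correcting for GC and length, 15 fell and 1 rose, in a fit that called 27% of all genes tested instead of 22.1%.

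**Figure D5:**
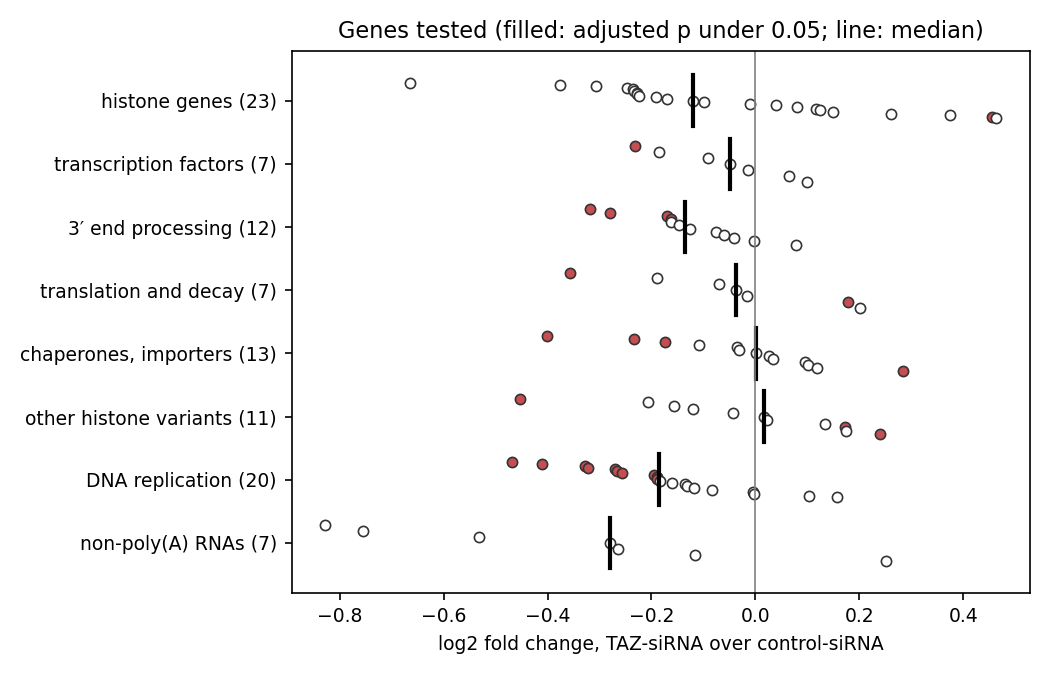
Log2 fold change (TAZ-siRNA over control-siRNA, edgeR) of the genes tested in the histone family and in each list, with the number tested in parentheses; filled points had an adjusted p under 0.05 and the line is the median. The median of the DNA replication genes was -0.19 with 10 of 20 filled. That of the histone genes was -0.12 with 1 of 23 filled. Most of the histone genes lay below 1 CPM, and each counts equally in their median. The sums of their classes, not drawn here, were at 0.12 (H1), 0.02 (H2A), 0.08 (H2B), 0.05 (H3) and -0.20 (H4).

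Other RNAs without a poly(A) tail were read beside the histone genes. Of 19 listed, 7 passed the filter, and 0 were called by edgeR in either direction, with a median of -0.28. Their summed level was 39.3, 24.3 and 42.0 CPM with control-siRNA and 37.3, 25.1 and 22.4 CPM with TAZ-siRNA, most of it from the signal recognition particle RNAs RN7SL1 and RN7SL2, which are named here after their values were seen. The level varied within both groups and was lowest in TAZ-siRNA replicate 3, the library in which the H1, H2A and H2B sums were highest. It was highest in control-siRNA replicate 3, which had the highest H1, H2A and H2B sums of its group. The part of these RNAs in the histone gene results was not tested.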

How the data were processed

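Poly(A) RNA libraries of MDA-MB-231 cells were sequenced, 3 for control-siRNA and 3 for TAZ-siRNA. After trimming, the authors aligned reads with HISAT2 (GRCh38) and used StringTie with RefSeq models for quantification. The deposited estimated counts were made by the authors from read coverage and are whole numbers, and were used unrounded. For the deposited FPKM, the authors divided by transcript length and depth, and for the deposited TPM by length and to a common total. Libraries were grouped, and numbered 1 to 3, by the labels. Groups were compared on the counts with edgeR 4.0.16 (R 4.3.3): TMM factors (0.978 to 1.02), filterByExpr with a minimum count of 10, robust quasi-likelihood test, Benjamini-Hochberg adjustment over 16966 genes. Class sums replaced the rows of their genes in a fit of the same kind over 16948 genes. Log2 fold changes are TAZ-siRNA over control-siRNA.

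Alternatives were DESeq2 1.42.0, upper-quartile factors, other filters, limma 3.58.1 on log2 FPKM with a pseudocount of 1 or 0.1, a replicate block, a GC and length correction (splines with 5 degrees of freedom, values for 89.7% of genes tested and 100% of histone genes), a threshold of 0.01, and each library left out. The fits were tested on simulated data, in which more edgeR calls were false than the threshold allows when each gene had its own dispersion, so calls close to 0.05 are less certain than their adjusted p states. A floor of 3 counts was 0.0418 to 0.0621 CPM and, like the intervals of counts, covers counting error only. The histone genes, the lists and the tests were chosen with earlier results of these data known. Named were the 4 highest genes of each class by mean CPM, those with an adjusted p under 0.05, the 2 largest rises and the 2 largest falls, list genes with an adjusted p under 0.05, and SLBP, NPAT, CASP8AP2 and WWTR1. Stem-loops were read from the GRCh38 genome and promoters from RefSeq windows.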

Additional observations from a re-analysis of the deposited data

How the results depend on the processing

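H2BC5 was called higher in each alternative that was run, and WWTR1 lower. The labels do not say whether a replicate number marks a shared culture or day. Deviations of same-numbered libraries from their group means correlated at -0.017, 0.0086 and 0.070. With 3 libraries per group, whose deviations sum to 0, these values cannot settle whether the libraries were paired. With the replicate number as a block, 30.2% of all genes tested were called (5122 genes), against 22.1% (3749 genes) without it. Among histone genes, 2 were called higher (H2BC5 and H2AC6) and 1 lower (H2BC4), and the lists gave 2 calls for transcription, 4 for translation and decay and 5 for variants. The GC and length correction called 27% of all genes tested. It called 3 histone genes higher (H1-2, H2BC5 and H2BC12) and 1 lower (H2BC4), with 3 calls for transcription, 1 for translation and decay and 16 for DNA replication. With both, 30.8% of all genes tested were called. Of histone genes, 4 were then higher and 1 lower, with 3, 4 and 16 calls for those lists, 7 for processing and 5 for variants. The class sums of H1 and H2B passed the threshold at log2 0.24 and 0.18 with the correction and at 0.24 and 0.18 with both. Without a filter, translation and decay gave 1 call, and limma gave 1 for processing with either pseudocount. At a threshold of 0.01, 1720 genes of the whole table were called.

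Signs near 0 turned for H2AC20 (0.030 with the correction), for H2BC21 (0.00078 and 0.00037 by limma with pseudocounts of 1 and 0.1, 0.00052 with the correction, 0.00015 with both) and for NPAT (0.0035 and 0.0042 by limma). With 1 library left out, the range was -0.20 to 0.19 for the H2A sum, -0.040 to 0.16 for the H3 sum, -0.081 to 0.14 for CASP8AP2, -0.58 to 0.16 for H2AC20, -0.089 to 0.10 for H2BC21, -0.17 to 0.49 for H3C10, -0.089 to 0.59 for H3C3 and -0.35 to 0.030 for H4C14. Calls ranged from 1937 to 5928 over all genes, from 0 to 1 for histone genes called lower (H2BC4, without TAZ-siRNA replicate 3), and over the lists from 5 to 12 for DNA replication, 1 to 6 for chaperones, 1 to 2 for transcription, 1 to 7 for processing, 1 to 4 for translation and decay and 1 to 6 for variants. Apart from the effect of fewer libraries, the cause was not tested. Of the 66 genes, 19 were at 0 and 24 under the filter, and whether these genes were not expressed or their mRNAs not recovered cannot be told apart. Identical copies and the recovery of untailed mRNA limit what each count stands for.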
